A study of Arabidopsis thaliana with 12 samples.

Results

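The CHR genes of Arabidopsis thaliana encode chromatin remodelling ATPases of the Snf2 family, and 8 of them were followed across 12 arrays from whole seedlings. The 8 genes were all probe sets whose annotation gave exactly 1 gene with a symbol made of CHR and digits, out of 17504 probe sets with a gene name and 38408 in all. A probe set is the group of probes that stands for a transcript on the array. Upper and lower case were treated alike, which added chr31 to 7 genes written in capitals. Each of the 8 genes had 1 probe set, so no choice between probe sets was needed.

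The arrays fell into 4 groups of 3: amp1-13 with 30 µM hyperphyllin, amp1-13 with DMSO, wild type with 30 µM hyperphyllin, and wild type with DMSO. Both genotypes are of the Col-0 background, all groups received 1% DMSO, the solvent of the compound, and all were grown for 10 d in liquid medium with sucrose. Loss of AMP1, which resembles carboxypeptidases and resides in the endoplasmic reticulum, enlarges the shoot meristem, and seedlings treated with the small molecule hyperphyllin take on features of such mutants. The comparisons therefore ask whether the compound or the mutation is accompanied by a change in the transcripts of these remodellers, and whether the compound acts on them when AMP1 is mutated. The level of AMP1 itself was not analysed here and gives no check of genotype.

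Snf2 proteins use ATP to move, remodel or evict nucleosomes or to displace other proteins from DNA, and so set how open chromatin is to transcription, repair and silencing. In plants, members of the family act in meristem upkeep, flowering time and growth under stress, and a plant-specific branch works in RNA-directed DNA methylation, in which small RNAs guide methylation to transposons. Of the 8 genes, chr31 (AT1G05490), CHR40 (AT3G24340) and CHR42 (AT5G20420) are the CLASSY genes CLSY3, CLSY4 and CLSY2, which help RNA polymerase IV to its target loci. CHR34 (AT2G21450) belongs to the same branch, near DRD1. CHR17 (AT5G18620) encodes an ISWI-type remodeller that spaces nucleosomes and acts with its close relative CHR11. CHR23 (AT5G19310), also called MINU2, is a relative of the SWI/SNF ATPases and acts with CHR12 in meristems. CHR18 (AT1G48310) is related to the human DNA-annealing helicase SMARCAL1, and CHR24 (AT5G63950) carries the further names ERCC6 and RAD26 in the RefSeq gene table (assembly TAIR10.1), after repair genes of human and yeast.

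The 8 genes were spread over the genome. In the order of genes in that table, 4 of them lay on chromosome 5, 2 on chromosome 1, 1 on chromosome 2 and 1 on chromosome 3. None were direct neighbours: the nearest pair, CHR17 and CHR23, had 79 protein-coding genes between them.

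All values are log2 expression values, so a difference of 1 is a doubling. None of the 8 genes passed the test in any comparison (limma, adjusted p under 0.05, Benjamini-Hochberg over the 17504 named probe sets). The same limma fit called 1.64% of the named probe sets for hyperphyllin against DMSO in wild type, 0.0171% for hyperphyllin against DMSO in amp1-13, 0.326% for amp1-13 against wild type in DMSO, 0.229% for amp1-13 against wild type in hyperphyllin, 0% for the interaction of genotype and treatment, and 2.70% for any difference among the 4 groups. Against such shares a count of 0 among 8 genes carries little information. The largest differences from 0 relative to their error were those of CHR42 and CHR18, described first. Each SE rests on a spread shared by all 4 groups, not on the compared groups alone.

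**Figure D1:**
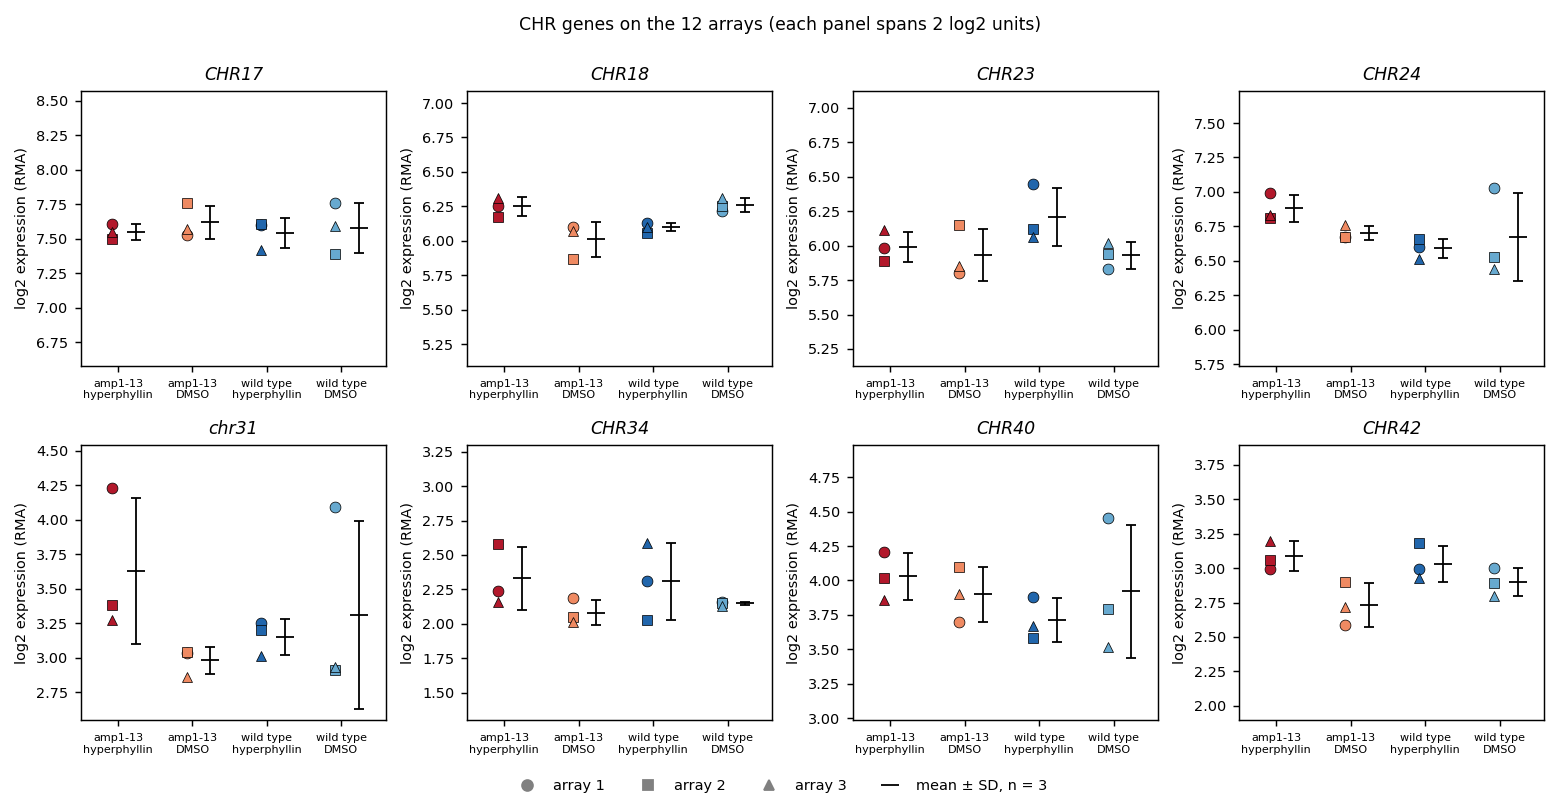
Log2 expression of the 8 CHR genes on each array (vertical axes, each spanning 2 log2 units) in the 4 groups (horizontal axes); marker shapes give the array number and black bars the mean ± SD of 3 arrays. The groups lie close together for most genes, and chr31, CHR24 and CHR40 each have a high array 1 in wild type with DMSO and in amp1-13 with hyperphyllin.

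CHR42, a CLASSY gene, was higher with hyperphyllin than with DMSO in amp1-13 on every array, without passing the test. It stood at 2.99, 3.06 and 3.20 in amp1-13 with hyperphyllin, against 2.59, 2.90 and 2.72 in amp1-13 with DMSO. In wild type it stood at 2.99, 3.18 and 2.93 with hyperphyllin, against 3.00, 2.89 and 2.80 with DMSO. The treated and untreated arrays thus did not overlap in amp1-13 and overlapped in wild type. The difference was 0.35 ± 0.11 in amp1-13 (SE, 3 arrays per group, a 1.28-fold difference with a 95% interval from 1.07 to 1.52; limma adjusted p = 0.461) and 0.13 ± 0.11 in wild type (adjusted p = 0.581). The difference between these responses, the interaction, was 0.22 ± 0.16 (adjusted p = 0.763), and 0.14 without amp1-13 DMSO array 1. In order of its means CHR42 ran from 3.09 ± 0.11 in amp1-13 with hyperphyllin through 3.03 ± 0.13 in wild type with hyperphyllin and 2.90 ± 0.10 in wild type with DMSO to 2.73 ± 0.16 in amp1-13 with DMSO (SD, n = 3), and the arrays of each neighbouring pair of groups overlapped. It was dim, below the median of every array. Its test over the 4 groups had an adjusted p of 0.22, and of 0.0336 when arrays were weighted by their reliability, where 22.8% of named probe sets passed. That weighting, which gave wild-type DMSO array 1 a weight of 0.20, produced the only call of a CHR gene in any alternative run.

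CHR18, the SMARCAL1 relative, had opposite differences with the compound in the 2 genotypes. It stood at 6.25, 6.17 and 6.31 in amp1-13 with hyperphyllin, against 6.10, 5.87 and 6.07 in amp1-13 with DMSO. In wild type it stood at 6.13, 6.06 and 6.10 with hyperphyllin, against 6.22, 6.25 and 6.31 with DMSO. Every treated amp1-13 array lay above every untreated one, while every treated wild-type array lay below every untreated one. The differences were 0.23 ± 0.09 in amp1-13 (SE, 3 arrays a group, limma adjusted p = 0.604) and -0.17 ± 0.09 in wild type (adjusted p = 0.381). The interaction was 0.40 ± 0.13 (adjusted p = 0.455), and 8.27% of named probe sets had an interaction with an unadjusted p under 0.05. Between genotypes CHR18 was at 0.15 ± 0.09 in hyperphyllin (adjusted p = 0.625) and at -0.25 ± 0.09 in DMSO (adjusted p = 0.215), with no overlap of arrays in either medium. These 4 differences share groups and are not independent of each other. The means of amp1-13 with hyperphyllin and wild type with DMSO lay side by side, at 6.25 ± 0.07 and 6.26 ± 0.05 (SD, n = 3), as did those of wild type with hyperphyllin and amp1-13 with DMSO, at 6.10 ± 0.03 and 6.01 ± 0.13. CHR18 varied little within groups, with a pooled SD of 0.08, smaller than that of all but 3.94% of the named probe sets. With each of the 12 arrays left out in turn the interaction lay between 0.33 and 0.44, and its adjusted p did not fall below 0.128 in any alternative run.

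**Figure D2:**
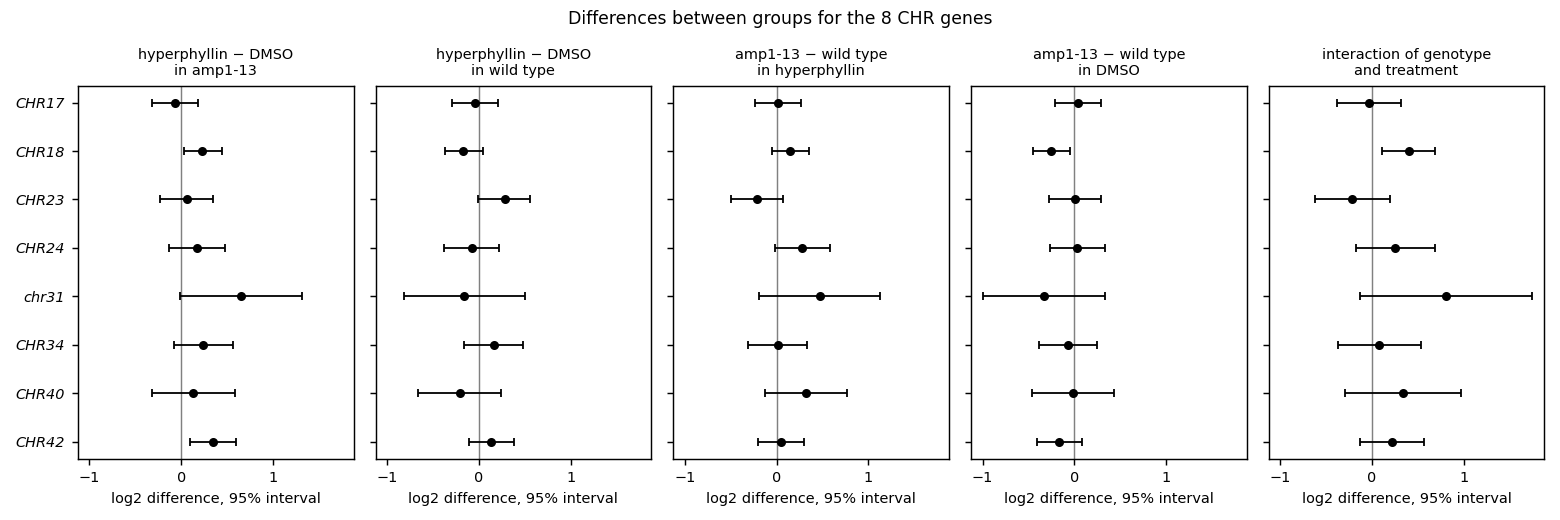
Log2 differences of the 8 CHR genes (horizontal axes, points) with their unadjusted 95% intervals (bars) for hyperphyllin minus DMSO in each genotype, amp1-13 minus wild type in each medium, and the interaction. The intervals of CHR18 and CHR42 leave out 0 for the compound in amp1-13. Those of CHR18 also leave out 0 between genotypes in DMSO and for the interaction. The intervals of chr31 are the widest.

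chr31, the second CLASSY gene, had the widest spread of the 8. It stood at 4.23, 3.38 and 3.27 in amp1-13 with hyperphyllin, against 3.03, 3.04 and 2.86 in amp1-13 with DMSO. In wild type it stood at 3.25, 3.20 and 3.01 with hyperphyllin, against 4.09, 2.91 and 2.93 with DMSO. Array 1 of amp1-13 with hyperphyllin and array 1 of wild type with DMSO lay far above the other 10, which ran from 2.86 to 3.38. The pooled SD within groups was 0.44, against a median of 0.17 over the named probe sets. In amp1-13 the compound went with a difference of 0.65 ± 0.30 (SE, 3 arrays a group, limma adjusted p = 0.704), and without hyperphyllin array 1 the difference was 0.35. In wild type the difference was -0.16 ± 0.30 (adjusted p = 0.833), and without DMSO array 1 it was 0.24 (adjusted p = 0.573). Between genotypes it was 0.47 ± 0.30 in hyperphyllin, with no overlap of arrays, and -0.33 ± 0.30 in DMSO (adjusted p = 0.638 and 0.627). The first was 0.17 without amp1-13 hyperphyllin array 1, and the second 0.06 without wild-type DMSO array 1.

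CHR40, the third CLASSY gene, showed the same pair of high arrays. It stood at 4.21, 4.02 and 3.86 in amp1-13 with hyperphyllin, against 3.70, 4.1 and 3.90 in amp1-13 with DMSO. In wild type it stood at 3.88, 3.58 and 3.67 with hyperphyllin, against 4.45, 3.79 and 3.52 with DMSO. The arrays overlapped in every comparison. Its differences with the compound were 0.13 ± 0.21 in amp1-13 and -0.21 ± 0.21 in wild type (SE, limma, with adjusted p of 0.952 and 0.639). Between genotypes they were 0.32 ± 0.21 in hyperphyllin and -0.02 ± 0.21 in DMSO (adjusted p = 0.641 and 0.981). Without wild-type DMSO array 1 the difference in wild type turned to 0.06 and that between genotypes in DMSO to 0.25.

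CHR34, the relative of DRD1, lay below the median of every array, between 2.01 and 2.59. Its means were 2.33 ± 0.23 in amp1-13 with hyperphyllin and 2.08 ± 0.09 in amp1-13 with DMSO (SD, n = 3). In wild type they were 2.31 ± 0.28 with hyperphyllin and 2.15 ± 0.01 with DMSO. The means with the compound were higher in both genotypes, by 0.24 ± 0.15 in amp1-13 and 0.16 ± 0.15 in wild type (SE, limma adjusted p = 0.812 and 0.601), but the arrays overlapped. A single array carried most of each difference: without amp1-13 hyperphyllin array 2 the first was 0.11, and without wild-type hyperphyllin array 3 the second was 0.02. Between genotypes CHR34 was at 0.01 ± 0.15 in hyperphyllin and -0.07 ± 0.15 in DMSO.

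Among the nucleosome remodellers, CHR23 had higher values with the compound on every wild-type array, without passing the test. It stood at 6.45, 6.12 and 6.06 in wild type with hyperphyllin, against 5.83, 5.94 and 6.02 in wild type with DMSO. In amp1-13 it stood at 5.98, 5.89 and 6.11 with hyperphyllin, against 5.80, 6.15 and 5.85 with DMSO. The groups were apart in wild type, with the highest value on hyperphyllin array 1, and overlapped in amp1-13. The difference was 0.28 ± 0.13 in wild type (SE, 3 arrays a group, limma adjusted p = 0.299), a 1.21-fold difference with a 95% interval from 0.994 to 1.48. It was 0.16 without hyperphyllin array 1. In amp1-13 it was 0.06 ± 0.13 (adjusted p = 0.969). The interaction was -0.22 ± 0.19 (adjusted p = 0.799), and -0.10 without wild-type hyperphyllin array 1.

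CHR17, the ISWI gene, differed little between groups. Its means were 7.55 ± 0.06 in amp1-13 with hyperphyllin, 7.62 ± 0.12 in amp1-13 with DMSO, 7.54 ± 0.11 in wild type with hyperphyllin and 7.58 ± 0.18 in wild type with DMSO (SD, n = 3). All arrays lay between 7.39 and 7.76, and the groups overlapped in every comparison. Its 4 differences ran from -0.07 to 0.04, each with an SE of 0.11, and its test over the 4 groups had the highest adjusted p of the set, 0.953. The 95% intervals of these differences reached as low as -0.32 and as high as 0.29, and still allow a change of up to 0.803-fold or 1.22-fold.

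Under hyperphyllin, CHR24, named after repair genes, had higher values in amp1-13 on every array, without passing the test. It stood at 6.99, 6.81 and 6.83 in amp1-13 with hyperphyllin, against 6.60, 6.66 and 6.51 in wild type with hyperphyllin. With DMSO it stood at 6.67, 6.67 and 6.76 in amp1-13, against 7.03, 6.53 and 6.44 in wild type. The treated amp1-13 arrays lay above both the treated wild-type arrays and the untreated amp1-13 arrays, while wild-type DMSO array 1 was the highest of all 12. The difference between genotypes was 0.28 ± 0.14 in hyperphyllin (SE, 3 arrays a group, limma adjusted p = 0.529) and 0.03 ± 0.14 in DMSO (adjusted p = 0.934). With the compound it was 0.17 ± 0.14 in amp1-13 and -0.08 ± 0.14 in wild type (adjusted p = 0.873 and 0.816). Without wild-type DMSO array 1 the difference between genotypes was 0.28 ± 0.09 in hyperphyllin (limma adjusted p = 0.121) and 0.21 in DMSO (adjusted p = 0.188). That with the compound in wild type was then 0.10 (adjusted p = 0.57). The test of CHR24 over the 4 groups had an adjusted p of 0.051 without this array, where 19.5% of named probe sets passed. It was 0.149 when amp1-13 hyperphyllin array 1 was left out as well.

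As a set, the CHR genes had higher means with hyperphyllin in amp1-13 for 7 of 8 members, with a median difference of 0.20, against a median of -0.00 and 49.6% higher means over the named probe sets. In that comparison 2 of 8 (CHR18 and CHR42) had an unadjusted p under 0.05, against 7.17% of named probe sets, and the arrays of 4 of 8 (CHR18, CHR24, chr31 and CHR42) did not overlap, all of them higher, against 16.9%. In wild type 3 of 8 had higher means with the compound and the median was -0.06, against -0.05 and 40.6% over the named probe sets. There 0 of 8 had an unadjusted limma p under 0.05, against 17.5%, and 2 of 8 (CHR23 higher, CHR18 lower) did not overlap, against 19.7%.

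Between genotypes in hyperphyllin, 7 of 8 had higher means in amp1-13, with a median of 0.10, against 0.00 and 50.6% over the named probe sets. In that medium 0 of 8 had an unadjusted limma p under 0.05, against 10.0%, and 3 of 8 (CHR18, CHR24 and chr31, all higher) did not overlap, against 22.0%. Without wild-type DMSO array 1, which enters this comparison through the shared estimate of the spread, 3 of 8 (CHR24, chr31 and CHR40) had an unadjusted p under 0.05, against 15.7%. The count was 0 of 8 without amp1-13 hyperphyllin array 1, against 8.84%, and 1 of 8 (CHR24) without both arrays, against 14.2%. In DMSO 3 of 8 were higher in amp1-13, against 42% of the named probe sets, and the median of -0.04 equalled theirs. There 1 of 8 (CHR18) had an unadjusted p under 0.05, against 16.4%, and 1 of 8 (CHR18, lower) did not overlap, against 15.9%. The interaction had a median of 0.23 over the 8 genes, 6 of them above 0, against 0.04 and 57% over the named probe sets. Without wild-type DMSO array 1 that median was 0.07, against 0.04. The unadjusted p of the interaction was under 0.05 for 1 of 8 (CHR18), against 8.27%. The test over the 4 groups gave an unadjusted p under 0.05 for 1 of 8 (CHR42), against 20.6% of named probe sets. The comparisons share groups of arrays, so these counts are not independent, and no test of the set was made.

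The size of a change that could have been called differed between comparisons. In wild type a CHR gene would have needed a difference of 0.41 (CHR18) to 1.35 (chr31) with the compound to pass at the p of the last called probe set. In amp1-13, where only 3 probe sets were called, it would have needed 0.85 to 2.79. For the 7 genes other than chr31, the 95% intervals of the 4 comparisons lay within 0.634-fold and 1.7-fold; for chr31 they reached 0.502-fold and 2.48-fold.

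Over the whole table wild-type DMSO array 1 was less like its own group than the other groups. It correlated at a mean r of 0.973 with the rest of the wild-type DMSO group but of 0.987 with the 3 other groups, whereas each of the other 11 arrays correlated more with its own group. Leaving it out changed the differences of the CHR genes in the comparisons that use it. With hyperphyllin in wild type 7 of 8 then had higher means and the median was 0.14, against -0.04 over the named probe sets, of which 42.7% were higher. In this comparison 0 of 8 had an unadjusted limma p under 0.05, against 26.3% of named probe sets. CHR17, CHR24, chr31 and CHR40 turned from lower to higher means there, and CHR18 alone stayed lower, at -0.19. In amp1-13 against wild type in DMSO 4 of 8 were then higher and the median was 0.01, against 44.1% and -0.04 over the named probe sets. An unadjusted limma p under 0.05 was found there for 1 of 8 (CHR18), against 27.6%. No CHR gene passed without this array either, with 14% and 15.3% of named probe sets called in these 2 comparisons.

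**Figure D3:**
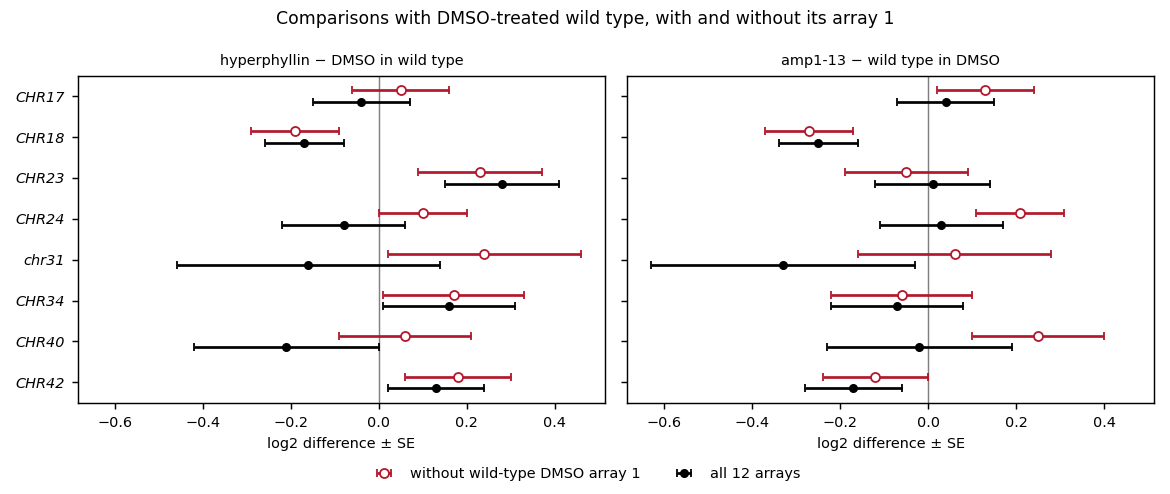
Log2 differences ± SE (horizontal axes) of the 8 CHR genes for hyperphyllin minus DMSO in wild type and amp1-13 minus wild type in DMSO, with all 12 arrays (filled) and without wild-type DMSO array 1 (open). CHR24, chr31 and CHR40 shift upwards without it, and chr31 is at 0.06 rather than -0.33 in the comparison of genotypes.

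By Pearson's r, CHR24, chr31 and CHR40 varied together from array to array. Of the 28 pairs of CHR genes, their 3 pairs were the ones with an adjusted p under 0.05 for Pearson's r over the 12 arrays (permutation test, 100000 permutations, two-sided, adjusted over 28 pairs). For Spearman's rho 0 pairs passed. The share of pairs that pass among all named probe sets was not computed, so the count cannot be set against a background. For CHR24 and chr31 r was 0.84 (permutation p = 8.80e-04, adjusted 0.0123) and rho 0.70 (permutation p = 0.014, adjusted 0.131). For CHR24 and CHR40 r was 0.83 (permutation p = 7.70e-04, adjusted 0.0123) and rho 0.78 (permutation p = 0.00446, adjusted 0.0993). For chr31 and CHR40 r was 0.76 (permutation p = 0.0042, adjusted 0.0392) and rho 0.59 (permutation p = 0.0499, adjusted 0.349).

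The relation rested in large part on the same 2 arrays, wild-type DMSO array 1 and amp1-13 hyperphyllin array 1. They were the 2 arrays farthest from the median of the first gene in each pair, and without them r was 0.54, 0.61 and 0.30 for the 3 pairs. After each group's mean was taken off, r was 0.88, 0.83 and 0.82 over all 12 arrays. These values still include the 2 arrays, which were the highest of their own groups for all 3 genes. They were not computed without them and add no separate support. The other 25 pairs had r from -0.49 (CHR17 and CHR34) to 0.57 (CHR17 and CHR40). Among them chr31 and CHR42 had r of 0.40 but rho of 0.75 (permutation p = 0.00709, adjusted 0.0993), and r of 0.72 without the 2 arrays, above that of the 3 pairs. With group means taken off, r of chr31 and CHR42 was 0.11 over all 12 arrays. The median over all 28 pairs was 0.14.

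**Figure D4:**
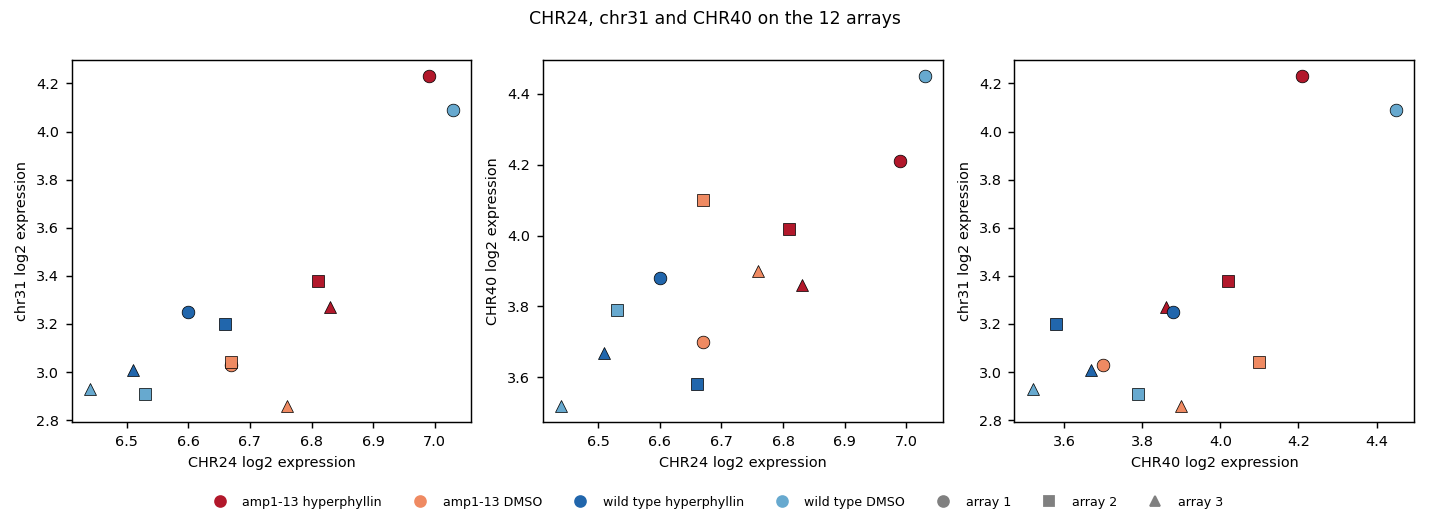
Log2 expression of CHR24, chr31 and CHR40 against each other, 1 point per array, with colours for groups and shapes for the array number. Wild-type DMSO array 1 and amp1-13 hyperphyllin array 1 lie at the top right of each panel, and the other 10 arrays show a looser relation.

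Root hair genes were lower on those 2 arrays than on the others of the same groups. The expansin gene EXPA7, a marker of root hairs, stood at 4.78 on array 1 of amp1-13 with hyperphyllin, against 5.55 and 5.43 on the other arrays of that group, and at 5.13 on array 1 of wild type with DMSO, against 6.79 and 6.52. EXPA18, a second root hair expansin, stood at 3.42, against 4.81 and 4.53, and at 4.02, against 5.51 and 6.05. They were also low in wild type with hyperphyllin, at 5.15 ± 0.27 (EXPA7) and 4.25 ± 0.38 (EXPA18), against 6.14 ± 0.89 and 5.19 ± 1.05 in wild type with DMSO (SD, n = 3). In amp1-13 the means of EXPA7 and EXPA18 were 5.25 ± 0.41 and 4.25 ± 0.73 with hyperphyllin, and 5.54 ± 0.09 and 4.63 ± 0.19 with DMSO. CHR24 and CHR40 had their lowest group means in wild type with hyperphyllin, at 6.59 ± 0.07 and 3.71 ± 0.16. Their highest were in amp1-13 with hyperphyllin, at 6.88 ± 0.10 and 4.03 ± 0.17. The differences of EXPA7 and EXPA18 with the compound in wild type were -0.99 ± 0.35 and -0.94 ± 0.46 (SE, limma adjusted p = 0.166 and 0.31). These were the 2 measured genes of 5 root markers, where measured means that a probe set's annotation gave that gene alone. Their part in the values of the CHR genes was not tested. In whole seedlings, fewer cells of a type and less RNA per cell cannot be told apart.

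**Figure D5:**
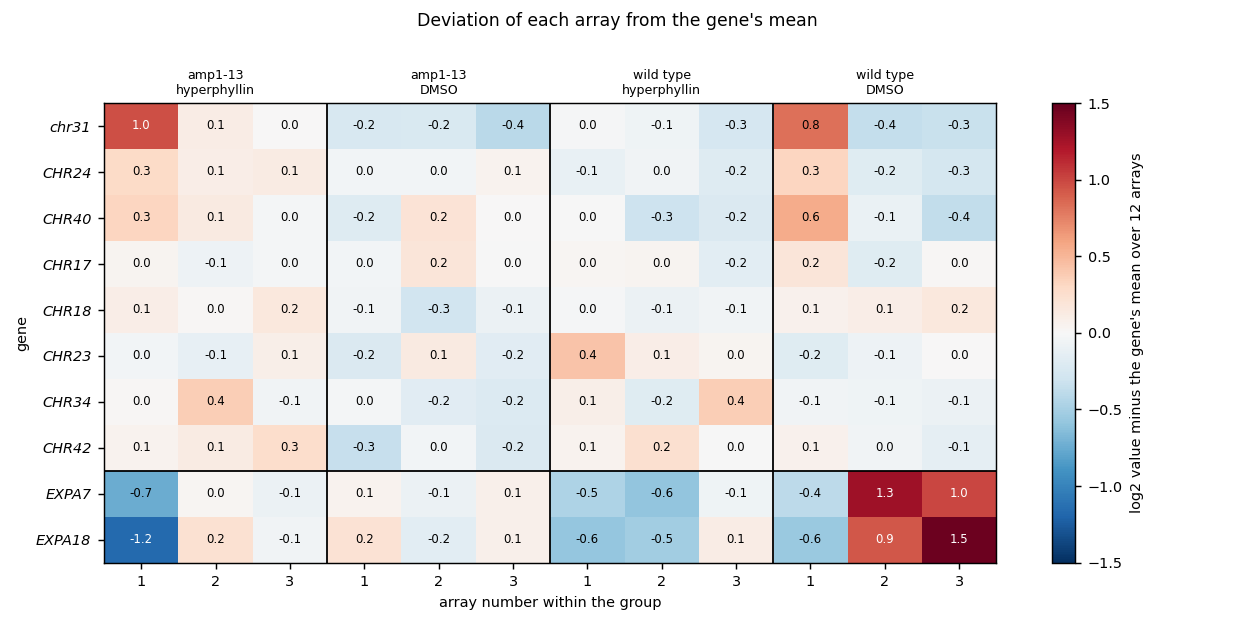
Each cell gives the log2 value of a gene on an array minus that gene's mean over the 12 arrays (colour, with the rounded value printed), for the 8 CHR genes above and the root hair genes EXPA7 and EXPA18 below the horizontal line. On array 1 of amp1-13 with hyperphyllin and array 1 of wild type with DMSO, chr31, CHR24 and CHR40 are high and both expansin genes low.

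Markers of shoot and root were both measured: PSAE-1 of photosystem I lay between 10.15 and 10.82 and EXPA7 between 4.78 and 6.79, above the median of every array, while EXPA18 ran from 3.42 to 6.05 and was not above it on every array. Of 3 measured leaf genes out of 5, PSAE-1 rose with hyperphyllin in wild type (0.55 ± 0.10, limma adjusted p = 0.025), while LHCB4.1, a light-harvesting protein gene, was at 0.40 ± 0.13 (adjusted p = 0.14) and RCA, the rubisco activase gene, at -0.01 ± 0.08. None of 8 markers of dividing cells was measured under a gene name, so the share of dividing cells was not followed.

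Other genes of chromatin were taken from 5 lists. Of 102 genes written in them beside the CHR genes, 13 were measured in this sense and 0 passed in any of the 6 limma tests. The others may lie on probe sets with no gene name or with several genes, and were not followed. The lowest adjusted p was 0.219, and 4 of the 13 had an unadjusted p under 0.05 in at least 1 test, against 34.8% of the named probe sets. Among 3 further Snf2 ATPases, INO80, the core of the complex of that name, was at -0.22 ± 0.10 in amp1-13 against wild type in hyperphyllin and at -0.25 ± 0.10 in DMSO (adjusted p = 0.488 and 0.248). ETL1 was at 0.03 ± 0.11 with the compound in amp1-13 and 0.22 ± 0.11 in wild type. ATRX, which deposits histone H3.3, was at -0.19 ± 0.15 and -0.22 ± 0.15 in the same comparisons.

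Subunits of remodelling complexes gave 6 measured genes of 23, with a median of 0.09 for the compound in amp1-13 and -0.02 in wild type. AT3G01890, a SWP73-type subunit of SWI/SNF complexes, had the smallest p in the limma test over the 4 groups (adjusted p = 0.27). With the compound it was at 0.24 ± 0.10 in amp1-13 and 0.17 ± 0.10 in wild type (limma adjusted p = 0.666 and 0.427). SWI3A, a core subunit, was at 0.36 ± 0.14 in amp1-13 against wild type in hyperphyllin (limma adjusted p = 0.418) and at -0.04 ± 0.14 in DMSO. BSH, the SNF5-type subunit, was at 0.17 ± 0.11 with the compound in amp1-13, and SWC2, of the complex that deposits H2A.Z, at -0.11 ± 0.14.

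From the list of DNA methylation and silencing, 1 of 21 genes was measured: DME, a DNA glycosylase that removes methylated cytosine, was at -0.19 ± 0.14 in amp1-13 against wild type in DMSO (limma adjusted p = 0.531). From the Polycomb and Trithorax list, 1 of 23 was measured: ULT1, a Trithorax-type gene that limits meristem size, was at 0.29 ± 0.14 in hyperphyllin and 0.24 ± 0.14 in DMSO. Of 15 histone chaperone and deacetylase genes, 2 were measured, and ASF1B, a chaperone of histones H3 and H4, was at 0.24 ± 0.13 and 0.34 ± 0.13 in these comparisons (adjusted p = 0.578 and 0.226). Its relative SGA2 was at 0.18 ± 0.13 and 0.06 ± 0.13.

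The genes whose profile over the 12 arrays was most like each CHR gene were sought among 1798 genes with a symbol of their own, by Pearson's r. The best of so many genes are high by choice, so the values describe likeness only. CHR24 had the closest matches: YUC4, an enzyme gene of auxin synthesis (r = 0.94), ILA (0.93) and the histone H2B gene HTB2 (0.93), which without the 2 arrays above were at 0.93, 0.83 and 0.82. CHR40 was most like ALC, a bHLH gene of fruit opening (0.89), the centromeric histone H3 gene HTR12 (0.88) and AtLEA4-1 (0.88), at 0.78, 0.83 and 0.68 without those arrays. chr31 was most like CP1 (0.87), the defensin-like gene PDF1.5 (0.87) and bZIP42 (0.84), at 0.39, 0.62 and 0.48 without those arrays.

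CHR18 was most like the enolase gene ENOC (0.82, and 0.84 without the 2 arrays), TBL28 (0.82 and 0.89) and TBL23 (0.76 and 0.84). CHR42 was most like SPL (0.83 and 0.86), SWEETIE (0.82 and 0.85) and the MADS-box gene GOA (0.77 and 0.78). CHR34 was most like the egg-cell gene EC1.5 (0.82 and 0.83), LCR75 (0.73 and 0.73) and the MADS-box gene AGL26 (0.72 and 0.81). CHR23 was most like HEMA2, a gene of tetrapyrrole synthesis (0.80 and 0.80), IQD22 (0.79 and 0.77) and PUB39 (0.79 and 0.82). CHR17 was most like the zinc-finger gene KNU (0.81 and 0.79), GLR2.9 (0.77 and 0.66) and the gamma-tubulin gene TUBG1 (0.77 and 0.65).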

How the data were processed

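The authors deposited 1 log2 expression value per probe set and array. The submitters' processing notes name RMA, a method that removes background, brings the arrays to a common distribution and combines the probes of a set; its software, version and probe definitions are not given in the sources used here. The values ran from 0.593 to 12.731, with array medians from 4.05 to 4.18, and were used unchanged. Precision is limited by the number of arrays, no measure of signal over background was used, and levels of different genes were not compared.

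All 12 arrays entered 1 linear model with 4 group means (R 4.3.3; limma 3.58.1 with eBayes; 8 residual and 3.9 prior degrees of freedom) over 17504 named probe sets, with Benjamini-Hochberg adjustment and a threshold of 0.05; the fit was tested on simulated data. Intervals are unadjusted. The labels call the arrays of a group biological replicates. Deviations from group means correlated over 0.1 in 4 of 18 same-number pairs of arrays, with a highest r of 0.29. The median r was 0.06 for same-number pairs and -0.02 for pairs with other numbers. Whether arrays with the same number shared a batch was not tested. Members and gene lists were chosen with earlier results of these data known. Named were all CHR genes, up to 4 members per list with the smallest p over the 4 groups, and the 3 genes most like each CHR gene. RefSeq (TAIR10.1) gave loci, other names and gene order. Alternatives left out each array, added the replicate block, tested all probe sets or the brighter named ones, weighted arrays, normalized again, let the variance follow the level, or used 6 arrays.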

Additional observations from a re-analysis of the deposited data

How the results depend on the processing

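The count of CHR genes called stayed at 0 in 117 of 118 alternative fits; array weights gave 1, CHR42 in the test over the 4 groups. Of 40 differences, 23 kept their sign in every alternative, among them all 5 of CHR18. Others turned, and the cause was not tested.

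With arrays left out in turn, the differences with hyperphyllin in amp1-13 ran from -0.11 to 0.00 for CHR17 and from -0.01 to 0.17 for CHR23. Those in wild type ran from -0.13 to 0.05 (CHR17), -0.19 to 0.10 (CHR24), -0.36 to 0.24 (chr31) and -0.41 to 0.06 (CHR40). Those between genotypes in hyperphyllin ran from -0.05 to 0.04 (CHR17), -0.13 to 0.15 (CHR34) and -0.01 to 0.13 (CHR42). In DMSO they ran from -0.05 to 0.13 (CHR17), -0.10 to 0.07 (CHR23), -0.08 to 0.21 (CHR24), -0.54 to 0.06 (chr31) and -0.22 to 0.25 (CHR40). The interaction ran from -0.12 to 0.06 (CHR17) and -0.06 to 0.22 (CHR34).

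Array weights turned CHR17 to 0.09, CHR24 to 0.06 and chr31 to 0.17 with the compound in wild type, CHR17 to -0.01 between genotypes in hyperphyllin, and CHR23 to -0.07 and CHR40 to 0.09 in DMSO. Leaving out wild-type DMSO array 1 and amp1-13 hyperphyllin array 1 together, chosen after seeing the data, gave 0.05 (CHR17), 0.10 (CHR24), 0.24 (chr31) and 0.06 (CHR40) with the compound in wild type, -0.02 for CHR17 between genotypes in hyperphyllin, -0.05 (CHR23), 0.06 (chr31) and 0.25 (CHR40) in DMSO, and -0.02 for the interaction of CHR40.

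The counts of named probe sets called, against which the CHR genes are read, moved far more. In the order hyperphyllin in amp1-13, hyperphyllin in wild type, amp1-13 against wild type in hyperphyllin, the same in DMSO, interaction and all 4 groups, they were 3, 287, 40, 57, 0 and 473. With arrays left out they ran from 2 to 138, 23 to 2449, 1 to 577, 0 to 2672, 0 to 482 and 115 to 3418, each highest without wild-type DMSO array 1. Array weights gave 102, 3026, 569, 2663, 290 and 3991, and leaving out both arrays 66, 2532, 261, 2719, 662 and 3144. The replicate block gave 189 for hyperphyllin in wild type, 15 and 2 between genotypes in hyperphyllin and in DMSO, and 294 over the 4 groups; it called 0 CHR genes. All probe sets together gave 10 for hyperphyllin in amp1-13, and 26 and 27 between genotypes in hyperphyllin and in DMSO. The brighter named probe sets gave 17 and 153, a variance trend 32 and 121, and a further quantile normalization 5 and 9, for hyperphyllin in amp1-13 and for genotypes in DMSO. Using the 6 arrays of a comparison gave 38 for hyperphyllin in amp1-13, and 375 and 0 between genotypes in hyperphyllin and in DMSO. Each CHR gene had 1 probe set, so averaging probe sets was not possible, and chr31, CHR34, CHR40 and CHR42 were too dim for the test of brighter probe sets.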
